A study of Rattus norvegicus with 8 samples.

Results

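Major histocompatibility complex (MHC) genes and their antigen presentation partners were followed in the pituitary of lactating rat dams after TCDD, a dioxin that activates the aryl hydrocarbon receptor. Members were chosen by the gene name printed on the array: every name beginning with RT1-, the prefix of the rat MHC, together with B2m, Tap1, Tap2, Tapbp, Cd74, Ciita, Psmb8, Psmb9 and Psmb10. They came to 53 of the 26269 gene names on the array, read by 64 of its 30367 probes. Of these probes, 44 belonged to class I (35 names), 13 to class II with Cd74 and Ciita (11 names), and 7 to B2m, peptide transport and the immunoproteasome (7 names). Whole pituitaries came from Wistar dams on postpartum day 7, of which 4 had been exposed to TCDD and 4 were controls. No dose and no day of exposure is stated in the labels, and every dam was nursing. Each sample was hybridised to 1 single-colour array, and all 4 TCDD arrays lay on one slide and all 4 control arrays on another, so the effects of slide and of TCDD cannot be told apart. The p-values measure only the spread between these samples.

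MHC class I molecules sit on most nucleated cells and show peptides cut from the cell's own proteins to CD8 T cells and natural killer cells. The proteasome cuts these peptides, the transporter Tap1-Tap2 carries them into the endoplasmic reticulum, and tapasin (Tapbp) helps load them onto a heavy chain that is held together by beta-2-microglobulin (B2m). Class II molecules are made mainly by macrophages, dendritic cells and B cells, where the invariant chain Cd74 guards the empty groove and the DM molecule exchanges its remnant for peptide. In the rat, RT1-A holds the classical class I genes, RT1-B and RT1-D the classical class II genes, and the RT1-CE, RT1-M, RT1-N, RT1-S and RT1-T names are further class I genes in tightly packed, closely related copies.

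Because these copies are close in sequence, values are given by probe and not by gene. The pair with the largest class I differences is shown first. The probes of RT1-N1, at chr20:2788743-2788802, and RT1-N3, at chr20:2810020-2810079 (rn4, plus strand), match at 51 of 58 aligned bases, and capitals mark the bases at which they differ.
RT1-N1: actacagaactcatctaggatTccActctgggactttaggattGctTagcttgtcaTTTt
RT1-N3: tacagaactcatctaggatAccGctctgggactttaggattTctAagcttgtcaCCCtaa
The probe of RT1-N2, at chr20:2787802-2787861 on the plus strand, lies just before that of RT1-N1 and did not align with either at the 75% identity used for the search.
RT1-N2: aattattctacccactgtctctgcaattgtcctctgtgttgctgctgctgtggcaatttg
A second pair shows how far cross-matching can reach. Bases of the RT1-M6-1 probe at chr20:1660276-1660335 (plus strand) match the RT1-CE5 probe at chr20:3510942-3511001 (minus strand) at 31 of 32 aligned positions, and the capital marks the mismatch.
RT1-M6-1: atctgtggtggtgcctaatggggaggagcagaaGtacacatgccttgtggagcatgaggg
RT1-CE5: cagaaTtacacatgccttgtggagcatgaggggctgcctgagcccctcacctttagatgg
The same RT1-M6-1 probe also matches a probe of RT1-S2 at 32 of 34 bases. It was well above background on all 8 arrays, while the other RT1-M6-1 probe, which shares no such stretch, was above it on none:
RT1-M6-1, other probe: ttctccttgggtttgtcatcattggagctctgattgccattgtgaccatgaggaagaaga
Which copy gave the signal was not tested, and whether the dams carry the same RT1 alleles as the array's design was not analysed here. Probe positions in exons or UTRs were not determined.

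Of the 64 member probes, 46 were well above background on at least 4 arrays and entered the fit over 19950 probes: 30 of class I, 9 of class II and all 7 of the processing genes. Level here means log2 signal, with 0 at an array's 75th percentile. No member passed an adjusted p of 0.05 in limma (the fit over all probes, with Benjamini-Hochberg adjustment), against 9 of all probes (0.0451%), of which 6 were higher (0.0301%) and 3 lower (0.015%) after TCDD. An unadjusted p under 0.05 in limma was reached by 8 of the 46 members, and by 10.4% of all probes (2077). Among these members, 3 class I probes were higher and 2 lower after TCDD, and 3 processing probes were lower. Without TCDD replicate 3 such a p was reached by 15 members and by 1947 of the 19950 probes. With any other array left out it was reached by 6 to 8 members, and by 1558 to 2265 of all probes. The groups did not overlap for 5 members, and for 6.88% of all probes. Shares of non-overlapping probes, here and below, were taken with the 75th percentile scaling only. The balance of directions over all probes depended on the scaling. At an unadjusted p under 0.05 in limma, 1513 were higher and 564 lower, against 858 and 899 with median centring. The median log2 difference (TCDD minus control) was -0.12 for class I, -0.15 for class II and -0.23 for the processing genes, where all probes had 0.02. The difference was below 0 for 23 of 30 class I probes, 7 of 9 class II probes and 6 of 7 processing probes, and for 43.5% of all probes. Since neighbouring RT1 probes share sequence, these counts are not counts of separate genes.

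**Figure D1:**
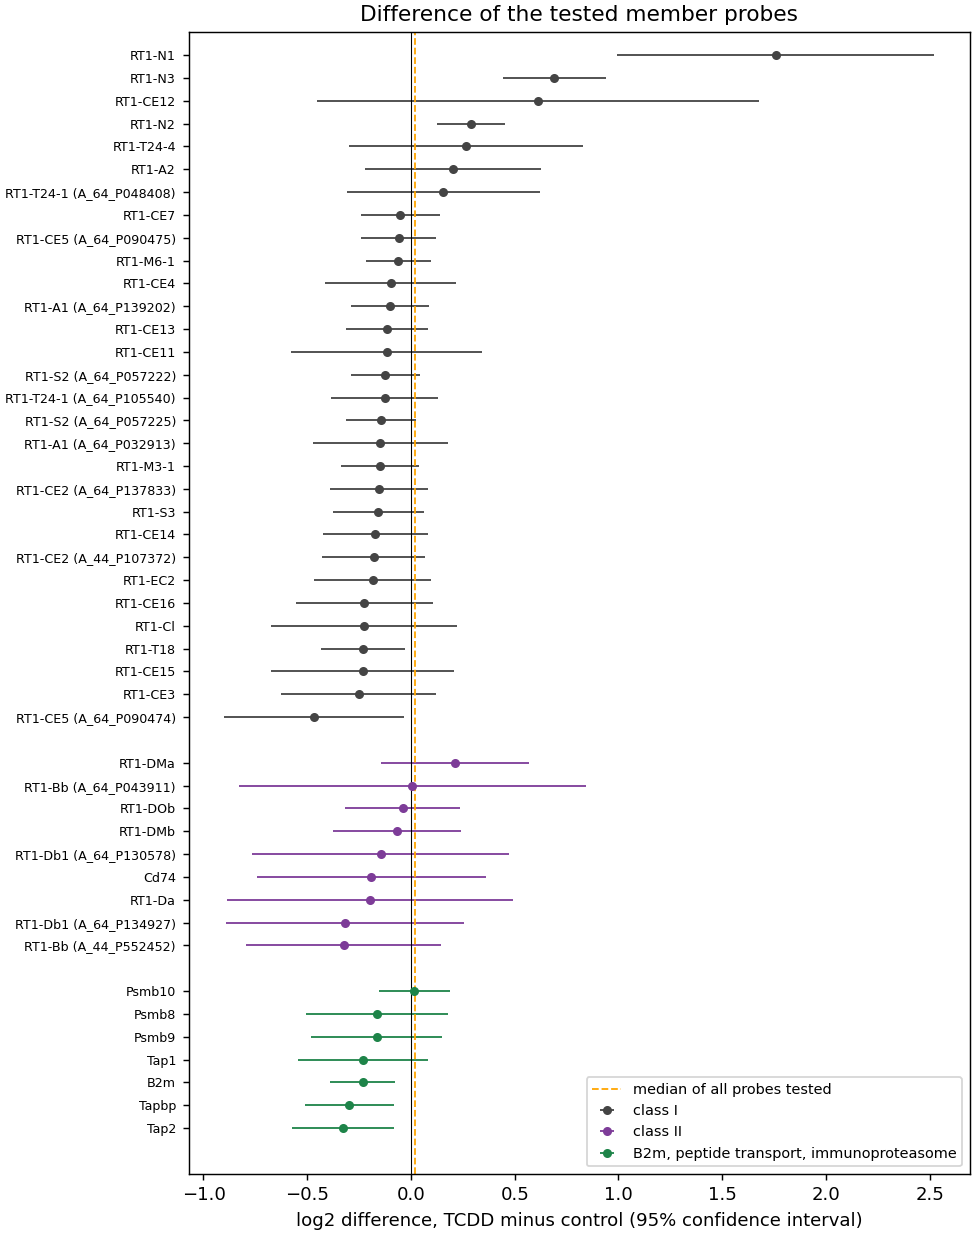
The log2 difference, TCDD minus control, of the 46 tested member probes, with 95% confidence intervals, by family; the dashed line is the median of all probes tested. RT1-N1, RT1-N2 and RT1-N3 lie to the right with intervals clear of 0, and most other class I probes lie between -0.30 and 0. Intervals of one RT1-CE5 probe, RT1-T18, B2m, Tap2 and Tapbp lie wholly below 0.

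Class I is described first. The 3 RT1-N probes stood apart upward, each with every TCDD value above every control value, which held for 3 of 30 class I probes and for 5.06% of all probes. RT1-N1 was at -2.60, -2.78, -3.97 and -2.46 in TCDD dams (replicates 1 to 4) and at -5.06, -4.84, -4.29 and -4.64 in control dams. TCDD replicate 3 lay nearest to the controls, and the groups did not overlap. The difference was 1.76 (SE 0.33; 3.38-fold), with an adjusted p of 0.19 in limma and an exact two-sided permutation p of 0.029, the smallest that 4 against 4 arrays can give. Any probe whose groups do not overlap has this permutation p, which is unadjusted, and 6.88% of all probes are of that kind. Here and below it repeats the non-overlap and is no separate result. Without TCDD replicate 3, the TCDD array nearest to the controls, the difference was 2.10 and passed, at an adjusted p of 0.039 in limma. Under every other alternative it did not pass, at a limma adjusted p of 0.10 to 0.47. Background correction with normexp and quantile normalization gave a difference of 0.86 (limma adjusted p = 0.28).

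RT1-N3 was at -2.83, -2.71, -2.90 and -2.69 in TCDD dams and at -3.66, -3.62, -3.36 and -3.25 in control dams. The TCDD values lay close together, and all of them were above the controls. The difference was 0.69 (SE 0.11; 1.61-fold; limma adjusted p = 0.12; exact permutation p = 0.029). Among the alternatives run it passed when arrays were weighted by quality (0.76, adjusted p = 0.047), and normexp gave 0.36. RT1-N2 was at -0.98, -0.88, -1.11 and -0.98 in TCDD dams and at -1.29, -1.34, -1.31 and -1.17 in control dams, a difference of 0.29 (SE 0.07; 1.22-fold; adjusted p = 0.29; exact permutation p = 0.029). In both genes the groups were close but did not overlap.

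Other class I probes lie among these genes. Between RT1-N1 and RT1-N3 on chromosome 20 lie 2 probes of RT1-S2, at -0.12 (SE 0.07) and -0.14 (SE 0.07), and beyond RT1-N3 lies RT1-S3, at -0.16 (SE 0.09). All 3 of these RT1-S probes stood lower in TCDD dams, and none passed. An unnamed transcript outside the members (ENSRNOT00000033046) also lies between RT1-N1 and RT1-N3. It stood higher in TCDD dams, at 0.13 (SE 0.06, limma adjusted p = 0.54), and did not pass. The next probe beyond RT1-S3 is RT1-T24-4, at 0.26 (SE 0.25), with a wide spread.

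**Figure D2:**
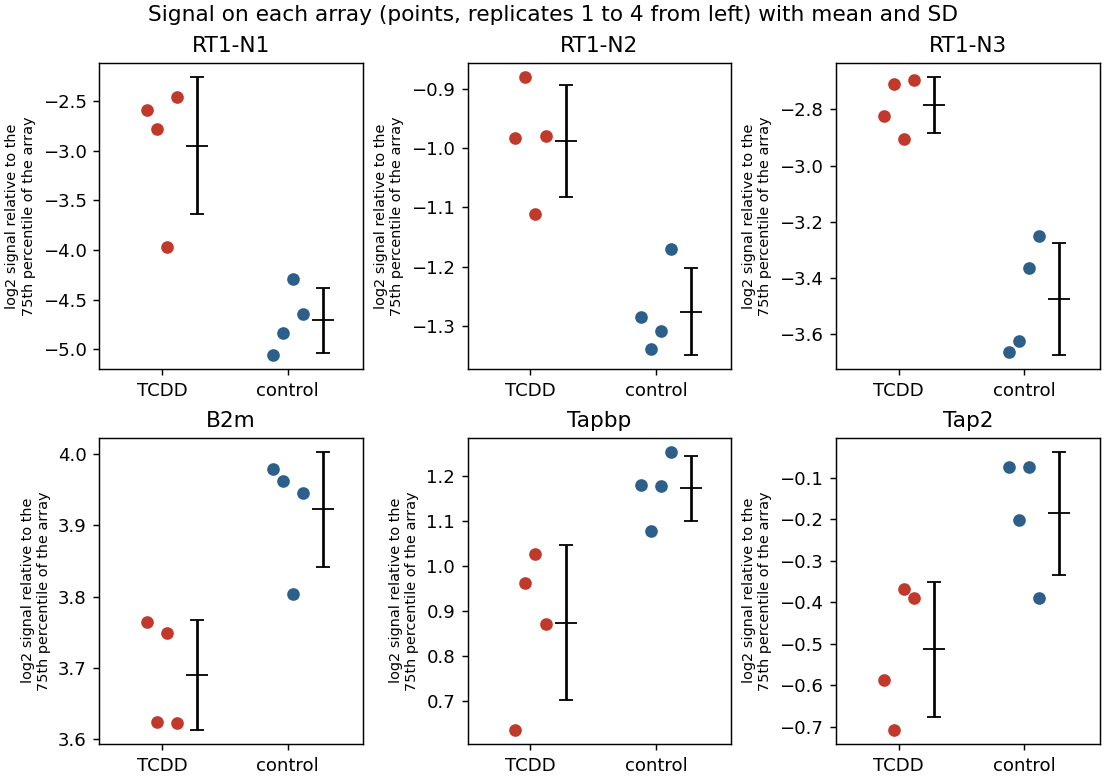
The log2 signal on each array, with mean and SD, for RT1-N1, RT1-N2, RT1-N3, B2m, Tapbp and Tap2, with TCDD at the left of each panel. The 3 RT1-N genes have all TCDD points above the controls, B2m and Tapbp have all of them below, and Tap2 has one tie near -0.39.

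The other 27 class I probes gave no such separation: 0 had every TCDD value below every control value, against 1.82% of all probes. RT1-A1, a classical class I heavy chain, was read by 2 probes. The one at chr20:5059904-5059963 was at 4.59, 4.57, 4.81 and 4.78 in TCDD dams and 4.76, 4.84, 4.67 and 4.87 in control dams, a difference of -0.10 (SE 0.08; adjusted p = 0.74). Its partner at chr20:5059134-5059193 was at 3.25, 3.74, 3.92 and 3.82 in TCDD dams and 3.79, 3.87, 3.73 and 3.92 in control dams, a difference of -0.15 (SE 0.14; adjusted p = 0.78). TCDD replicate 1 lay below the rest for that probe, and without it the difference was -0.0032.

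RT1-CE16 was at 2.95, 3.40, 3.61 and 3.58 in TCDD dams and at 3.61, 3.67, 3.50 and 3.67 in control dams. Again TCDD replicate 1 was the low array, and the difference was -0.23 (SE 0.14; adjusted p = 0.65), or -0.08 without that array. The lowest class I difference was that of an RT1-CE5 probe, -0.47 (SE 0.19; adjusted p = 0.45), while the second RT1-CE5 probe stood at -0.06 (SE 0.08). RT1-T18 was at -0.23 (SE 0.09; adjusted p = 0.44) by the 1 of its 3 probes that was tested. RT1-M3-1, whose mouse counterpart presents formylated bacterial peptides, was at -0.15 (SE 0.08; adjusted p = 0.58).

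TCDD replicate 1 was often the lowest array within class I. It was the lowest of all 8 arrays on 16 of 30 class I probes, against 11.7% of all probes, and the highest on 4, against 11.2%. RT1-Cl, for example, was at 1.80 on that array and at 2.42 to 2.77 on the other 3 TCDD arrays. RT1-CE11 was at 0.59 there and at 1.32 to 1.59 on the other TCDD arrays. The 4 probes on which it was highest, chosen after their values were seen, were those of RT1-A2, RT1-CE12, RT1-T24-4 and one of RT1-T24-1. Other arrays were often extreme too. TCDD replicate 2 was the lowest of all 8 on 9 of 30 class I probes, against 11.7% of all probes, and control replicate 4 was the highest on 9. By Dixon's ratio, defined in the flagged results below, TCDD replicate 1 stood out on 0 class I probes. Many of these probes share sequence and are not separate readings.

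RT1-A2 was at 2.08 on TCDD replicate 1, at 1.15, 1.37 and 1.37 on the other TCDD arrays, and at 1.26, 1.28, 1.19 and 1.41 in control dams. RT1-CE12 was at -2.25, -4.23, -4.00 and -4.50 in TCDD dams and -4.81, -4.41, -4.13 and -4.09 in control dams. Its difference of 0.61 (SE 0.46; adjusted p = 0.71) became 0.11 without that array. RT1-T24-4 was at 0.88, -0.39, 0.08 and -0.20 in TCDD dams and at -0.15, -0.18, -0.23 and -0.13 in control dams, and its difference of 0.26 became 0.0020 without it. Without TCDD replicate 1 the class I median was -0.06, with 8 probes higher and 22 lower. The RT1 genotype of each dam was not analysed here.

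**Figure D3:**
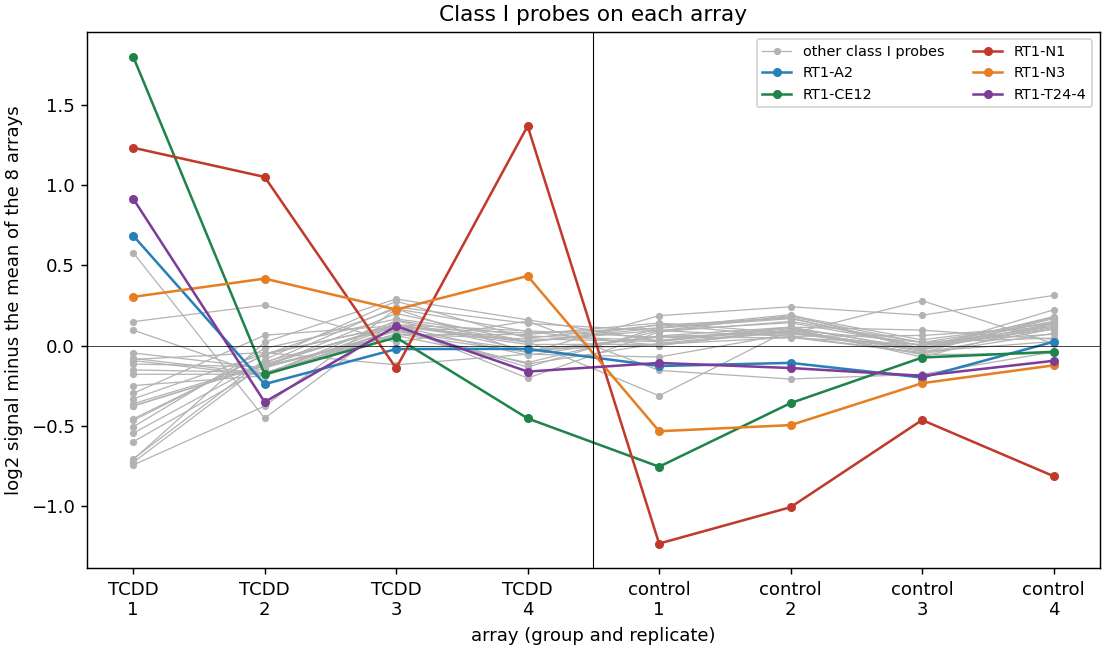
Each class I probe on each array as log2 signal minus its mean over the 8 arrays, TCDD arrays to the left of the line. On TCDD replicate 1 most grey lines dip, while RT1-A2, RT1-CE12 and RT1-T24-4 peak; RT1-N1 and RT1-N3 are above the controls on all 4 TCDD arrays.

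Not every class I name gave a signal. Of 44 class I probes, 9 were never well above background and 5 were so on 1 or 2 arrays only. The probes of RT1-M1-2, RT1-M1-4, RT1-M2, RT1-M5, RT1-M10-1 and RT1-CE6 were among the 9. One RT1-M1-5 probe was well above background on 2 of 4 TCDD arrays and 0 of 4 control arrays. It was at -7.13, -8.37, -3.86 and -5.31 in TCDD dams and at -8.78, -8.61, -8.59 and -8.38 in control dams. Arrays below background give no measured level, so no fold is given for it. Of the other class I probes with signal on few arrays, RT1-CE10 was well above background on 1 TCDD and 0 control arrays. RT1-M4, an RT1-T18 probe (A_64_P064336) and RT1-T24-2 were so on 0 TCDD arrays and 1 control array each. The other RT1-M1-5 probe was so on 0 TCDD and 0 control arrays. The share of all probes with such patterns was not taken, and no fold can be given for these either.

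Of the 7 probes of genes that build class I complexes, 6 had a difference below 0 and 1 above, and none passed. On 2 of 7, B2m and Tapbp, all TCDD values lay below all controls, as on 1.82% of all probes, and on the other 5 the groups overlapped. B2m, the light chain of class I (probe at chr3:108932530-108932589 in rn4), was at 3.76, 3.62, 3.75 and 3.62 in TCDD dams and at 3.98, 3.96, 3.80 and 3.95 in control dams. The groups did not overlap. The difference was -0.23 (SE 0.07; 1.17-fold lower; adjusted p = 0.34; exact permutation p = 0.029).

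Tapbp, tapasin (probe at chr20:5111712-5111882), was at 0.64, 0.96, 1.03 and 0.87 in TCDD dams and 1.18, 1.08, 1.18 and 1.25 in control dams, with no overlap. The difference was -0.30 (SE 0.09; 1.23-fold lower; adjusted p = 0.37; exact permutation p = 0.029). Tap2, one chain of the peptide transporter (probe at chr20:4770555-4770614), was at -0.59, -0.71, -0.37 and -0.39 in TCDD dams and at -0.07, -0.20, -0.07 and -0.39 in control dams. The groups overlapped through control replicate 4, and the difference was -0.33 (SE 0.11; adjusted p = 0.38; exact permutation p = 0.057).

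Tap1, the partner of Tap2, was at -3.46, -3.85, -3.23 and -3.72 in TCDD dams and -3.23, -3.47, -3.32 and -3.32 in control dams (difference -0.23, SE 0.14; adjusted p = 0.61). The immunoproteasome subunits Psmb8 and Psmb9 replace constitutive subunits in cells exposed to interferon. Psmb8 was at -0.96, -1.58, -0.97 and -1.19 in TCDD dams and -0.85, -0.93, -1.12 and -1.15 in control dams (-0.16, SE 0.15; adjusted p = 0.77). Psmb9 was at 0.70, 0.20, 0.66 and 0.66 in TCDD dams and 0.83, 0.83, 0.78 and 0.45 in control dams (-0.17, SE 0.14; adjusted p = 0.74). Both were lowest on TCDD replicate 2, and the groups overlapped; without that array the differences were -0.028 for Psmb8 and -0.047 for Psmb9. Psmb10, the third such subunit, was at 2.61, 2.78, 2.63 and 2.82 in TCDD dams and 2.59, 2.73, 2.78 and 2.67 in control dams, a difference of 0.02 (SE 0.08) whose sign turned with the scaling, from -0.02 to 0.02.

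Promoters found by symbol were searched for short motifs. They covered 20 of the 25 tested class I genes, 6 of the 7 tested class II genes and all 7 processing genes. RT1-N1 and RT1-DMb were among the genes without one. The promoters shown here were picked with the differences known. RT1-N3 had a difference above 0, and B2m, Tap2 and Tapbp had differences below 0. None of these passed in the fit over all probes. A GAAANNGAA match (interferon response elements hold such repeats; both strands) occurred in the RefSeq GRCr8 promoters, 250 bases before to 50 after the start, of 6 of 7 processing genes, 3 of 20 tested class I genes and 0 of 6 class II genes, against 9.71% of 33469 promoters. Capitals mark it (in RT1-N3 and Tapbp as overlapping matches), a CCAAT match or the AhR core GCGTG on either strand. B2m lies on chr3:129549080-129549379 (plus), Tap2 on chr20:4652247-4652546 (minus), Tapbp on chr20:4967828-4968127 (minus) and RT1-N3 on chr20:2666239-2666538 (plus).
B2m: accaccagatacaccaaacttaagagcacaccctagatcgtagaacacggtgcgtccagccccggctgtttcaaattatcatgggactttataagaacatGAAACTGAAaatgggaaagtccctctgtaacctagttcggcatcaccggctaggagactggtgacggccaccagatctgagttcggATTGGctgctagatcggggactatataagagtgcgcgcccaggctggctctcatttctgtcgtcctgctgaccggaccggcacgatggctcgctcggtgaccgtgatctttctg
Tap2: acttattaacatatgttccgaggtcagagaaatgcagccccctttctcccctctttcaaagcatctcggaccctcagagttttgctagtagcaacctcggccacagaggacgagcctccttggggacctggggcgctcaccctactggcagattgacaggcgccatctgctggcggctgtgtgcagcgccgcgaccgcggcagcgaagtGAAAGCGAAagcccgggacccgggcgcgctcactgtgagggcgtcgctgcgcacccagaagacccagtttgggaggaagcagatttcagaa
Tapbp: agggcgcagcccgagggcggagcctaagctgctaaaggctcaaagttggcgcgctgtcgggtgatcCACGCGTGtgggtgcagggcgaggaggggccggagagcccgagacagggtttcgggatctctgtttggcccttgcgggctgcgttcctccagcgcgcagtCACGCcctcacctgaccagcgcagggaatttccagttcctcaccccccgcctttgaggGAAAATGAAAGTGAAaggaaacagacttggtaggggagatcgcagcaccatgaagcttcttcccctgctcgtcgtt
RT1-N3: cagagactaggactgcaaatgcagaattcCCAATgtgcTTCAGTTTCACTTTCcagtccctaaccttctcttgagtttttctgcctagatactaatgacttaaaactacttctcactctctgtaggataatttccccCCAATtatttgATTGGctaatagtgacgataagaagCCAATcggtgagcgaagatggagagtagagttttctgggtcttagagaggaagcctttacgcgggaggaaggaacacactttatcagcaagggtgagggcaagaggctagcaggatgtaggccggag
The core GCGTG, which the dioxin receptor binds as part of a longer element, matched in 3 of 7 processing genes (Psmb9, Tap1 and Tapbp, in the last with overlapping matches on both strands), 9 of 20 class I genes and 0 of 6 class II genes, against 29.7% of all promoters. RT1-N2 and RT1-N3 hold 0 matches of it in this window, and RT1-N1 could not be searched. A match is a description of letters and not a site.

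Class II is described next. Of 13 probes, 9 were tested. RT1-DOa and RT1-Ha were never well above background, RT1-Ba was so on 1 TCDD and 1 control array, and Ciita, the master regulator of class II, on 1 TCDD and 2 control arrays. The values differed widely between dams of one group. The median SD within groups was 0.39 for class II probes, 0.16 for class I probes and 0.15 for all probes. Groups overlapped for all 9 probes, 0 reached an unadjusted p under 0.05 and the adjusted p lay between 0.64 and 0.997.

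Cd74, the invariant chain, was at 2.65, 1.53, 2.37 and 2.03 in TCDD dams and 2.38, 2.26, 2.03 and 2.66 in control dams, a difference of -0.19 (SE 0.24; adjusted p = 0.84). TCDD replicate 2 was the low array, and TCDD replicate 1 and control replicate 4 were the high ones. RT1-Da, the alpha chain of the class II molecule RT1-D, followed: 0.78, -0.63, 0.22 and -0.35 in TCDD dams and 0.23, -0.04, 0.01 and 0.59 in control dams (-0.20, SE 0.30; adjusted p = 0.87).
RT1-Db1, its beta chain, had 2 probes. One was at 1.1, -0.09, 0.71 and 0.13 in TCDD dams and at 0.59, 0.43, 0.39 and 1.03 in control dams (-0.15, SE 0.27). The other was at 1.16, 0.10, 0.89 and 0.28 in TCDD dams and at 0.85, 0.65, 0.90 and 1.31 in control dams (-0.32, SE 0.25). Both were lowest on TCDD replicate 2.

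RT1-Bb, the beta chain of RT1-B, was read differently by its 2 probes. One was at 0.90, 0.53, 1.42 and 0.90 in TCDD dams and 1.28, 1.02, 1.1 and 1.65 in control dams (-0.32, SE 0.20; adjusted p = 0.64). The other was at 1.01, -0.79, 0.18 and -0.46 in TCDD dams and -0.05, -0.23, -0.17 and 0.36 in control dams (0.01, SE 0.36; adjusted p = 0.997). On TCDD replicate 1 the first lay below its mean over the 8 arrays and the second above its own.
RT1-DMa and RT1-DMb form the peptide exchange molecule and RT1-DOb belongs to its modulator. RT1-DMa was at -0.50, -1.02, -0.79 and -1.17 in TCDD dams and -1.28, -1.03, -1.14 and -0.86 in control dams (0.21, SE 0.16; adjusted p = 0.70). RT1-DMb was at -1.34, -1.84, -1.29 and -1.41 in TCDD dams and -1.30, -1.46, -1.59 and -1.28 in control dams (-0.07, SE 0.13). RT1-DOb was at -5.54, -5.68, -5.42 and -5.10 in TCDD dams and -5.50, -5.39, -5.29 and -5.40 in control dams (-0.04, SE 0.12). All 3 overlapped widely.

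Across dams the class II probes shared a pattern. Their median deviation from each probe's mean was 0.41, -0.62, 0.15 and -0.22 in TCDD dams and 0.08, -0.08, -0.15 and 0.42 in control dams. TCDD replicate 2 was the lowest of all 8 arrays on 8 of 9 class II probes, against 11.7% of all probes. Without it the class II median was 0.04, with 7 probes higher and 2 lower; without TCDD replicate 1 it was -0.33. The sign of the class II median changed with TCDD replicate 2.

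Markers of macrophages and dendritic cells, the cells that make most class II, were measured on the same arrays. Of 16 such markers, 12 were tested, 2 higher and 10 lower, with a median of -0.13 and 0 called. Cd163, Itgax, Flt3 and Mrc1 were not well above background often enough to be tested. The mean deviation of the 12 was 0.13, -0.33, 0.17 and -0.22 in TCDD dams and 0.12, 0.11, -0.02 and 0.04 in control dams. Their summed linear signal, in units of the 75th percentile, ran from 26.8 to 37.4 in TCDD dams and from 31.7 to 34.4 in control dams. Control replicate 4 was high for class II and not for these markers. Csf1r, a macrophage growth factor receptor, differed by -0.30 (SE 0.13; adjusted p = 0.48), and C1qa by -0.32 (SE 0.17; adjusted p = 0.57). In whole tissue, fewer cells of a type and less RNA per cell cannot be told apart, and the part of these cells in the class II values was not tested.

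**Figure D4:**
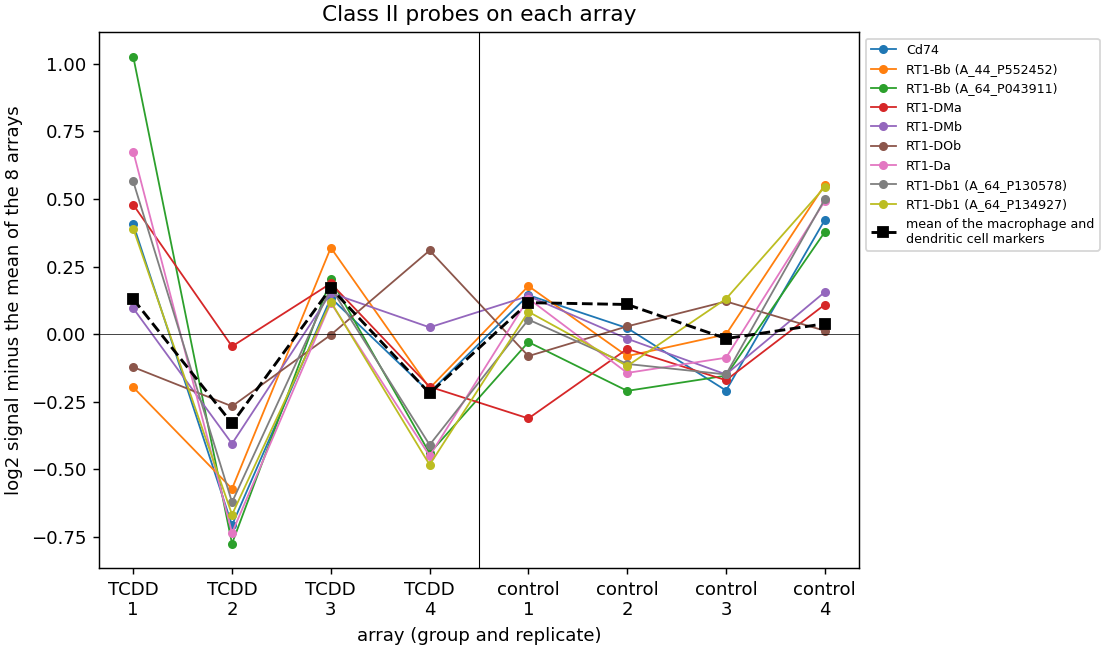
Each class II probe on each array as log2 signal minus its mean over the 8 arrays, TCDD arrays to the left, with the mean of the macrophage and dendritic cell markers as black squares. Most probes are high on TCDD replicate 1 and control replicate 4 and low on TCDD replicates 2 and 4; the markers dip on the same 2 TCDD arrays.

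The promoters found for tested class II genes, without RT1-DMb, all held a CCAAT match (6 of 6, against 37.5% of all promoters). So did 14 of 20 class I and 3 of 7 processing genes. The X1 box, here its core AGCAACNGA on both strands, through which the class II regulators act, was matched in RT1-Da, RT1-Db1 and RT1-DOb, 3 of 6 class II genes, in 1 of 20 class I and 0 of 7 processing genes, and in 1.33% of all promoters. Capitals mark the box and the CCAAT match in RT1-Da, at chr20:4515165-4515464 of GRCr8 (plus).
RT1-Da: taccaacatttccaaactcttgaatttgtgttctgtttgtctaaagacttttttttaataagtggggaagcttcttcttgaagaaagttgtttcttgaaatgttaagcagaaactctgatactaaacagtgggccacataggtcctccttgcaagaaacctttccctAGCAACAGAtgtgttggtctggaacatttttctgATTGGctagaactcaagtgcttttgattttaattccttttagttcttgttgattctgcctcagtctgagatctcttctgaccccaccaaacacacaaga
No motif was tested against the differences, which did not pass for any member. The promoters shown earlier were picked with the differences known, so their motifs say nothing about the differences.

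Lists of the wider pathway gave 0 called genes. Of 8 class I assembly genes 4 were higher and 4 lower. Erap1, an aminopeptidase that trims peptides for class I, was at 1.52 ± 0.18 in TCDD dams and 1.85 ± 0.11 in control dams (SD, n = 4 each), a difference of -0.33 (SE 0.10; limma adjusted p = 0.37). Of 7 proteasome activator and constitutive subunits, 4 were higher and 3 lower. Of 15 class II processing genes, 8 were higher and 7 lower, among them Ctss, a cathepsin that cuts the invariant chain, at -0.28 (SE 0.19).

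Of 4 class I-like molecules tested outside RT1, 2 were higher and 2 lower. Hfe, an iron regulator with a class I fold, was at -0.04 ± 0.20 in TCDD dams and -0.42 ± 0.14 in control dams (SD, n = 4 each), with no overlap (0.38, SE 0.12; limma adjusted p = 0.36). Of 15 interferon-stimulated genes, 3 were higher and 12 lower, with a median of -0.15. Stat2 was at -0.15 (SE 0.06; adjusted p = 0.43) with all TCDD values below the controls, and Oasl at 0.35 (SE 0.13; adjusted p = 0.43) with all above. Of 8 interferon gamma signalling genes, 3 were higher and 5 lower. Irf1, a transcription factor of this pathway, was at -0.18 (SE 0.09).

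Across the arrays, the 75th percentile of signal ranged over 765 to 932, with 0 saturated spots and 71.1% to 73.9% of spots passing the background flag. All 7 pituitary hormone genes checked for the labelled tissue were measured and tested. Of 15 leukocyte markers, 6 were tested; Cd3e, Cd2, Cd8a and Itgal were among those that were not. The summed signal of the 6 was 0.395 to 0.441 in TCDD dams and 0.343 to 0.436 in control dams. Erythrocyte markers had 5 of 5 probes with a difference above 0 (median 0.77, 0 called), where 43.5% of all probes had one below 0. All 5 had an unadjusted p under 0.05 in limma, against 10.4% of all probes. Slc4a1 was at 1.39 (SE 0.23, 2.63-fold, limma adjusted p = 0.13), with all TCDD values above the controls. It passed under 1 alternative (limma adjusted p = 0.047). The summed signal of the erythrocyte markers was 438 to 664 in TCDD dams and 304 to 551 in control dams. Endothelial markers split 4 higher and 3 lower, and posterior and intermediate lobe markers 2 and 4. The part of each in the values above was not tested.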

How the data were processed

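Total RNA from 8 pituitaries, 4 TCDD and 4 control, grouped by the agent in the labels, was labelled with Cy3. Per the file headers, images were read with version 10.7.1.1 of Agilent Feature Extraction and deposited as background-subtracted, detrended linear intensity for each array, with surrogate values for dim spots and probe coordinates in rn4. A second deposited intensity table, whose normalization is not given in the sources used here, served as an alternative.

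From these, log2 of the processed intensity minus each array's 75th percentile was averaged over a probe's spots, with outlier spots set to missing. Probes well above background on 4 or more of 8 arrays were fitted with limma 3.58.1 in R 4.3.3 (group only, two-sided, Benjamini-Hochberg over 19950 probes), and the fit was tested on simulated data. The exact permutation test ran over 70 assignments. A probe that was below background on every array of a group was given no fold. Array number limits precision. Motifs were searched in RefSeq promoters by symbol, with short motif cores chosen after longer forms had been searched. The fit did not treat the samples as paired by replicate number. The correlations of array deviations given below cannot exclude a pairing. The members, lists and rule for named genes were chosen with earlier results of these data known. The rule takes all tested class II and processing probes, and class I probes that pass, do not overlap, or are among the 3 brightest, most different or most variable, plus up to 3 genes per other list, each by its brightest probe. Alternatives changed the background correction, scaling, filter, probe choice, outlier spots, variance model or source of values, weighted arrays, added the replicate block, or left out each array.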

Additional observations from a re-analysis of the deposited data

Results flagged for a closer look

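Within groups of 4 arrays, the gap of the highest or lowest array to its neighbour was set against the group's range (Dixon's ratio, at its 95% critical value). The groups were those of the 46 tested members and of 16 named genes of other lists. Of 124 groups, 4 stood out, where chance gives about 5%. An RT1-S2 probe (A_64_P057225) stood out in TCDD replicate 3, at 1.04 against 0.84 to 0.87 on the other TCDD arrays (ratio 0.866). Psmb9 (A_44_P301963) stood out in TCDD replicate 2, at 0.20 against 0.66 to 0.70 on the other TCDD arrays (ratio 0.923), and in control replicate 4, at 0.45 against 0.78 to 0.83 (ratio 0.866). Ctss (A_44_P355928) stood out in TCDD replicate 2 (ratio 0.836), the array on which class II probes were lowest too.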

How the results depend on the processing

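Over all probes, 9 were called (6 higher, 3 lower) against 5 and 4 with median centring, 0 with normexp and quantile normalization (1210 higher and 950 lower at an unadjusted p under 0.05 in limma), 1 with quantile normalization alone (0 higher), 14 with one probe per gene name, 4 with a trended robust variance, 28 with array weights, 1 with the deposited table, 0 with the replicate block (1203 higher and 494 lower unadjusted) and 0 to 6 when 1 array was left out; without TCDD replicate 1, or control replicate 1 or 3, 0 were called (1837, 1558 and 1736 unadjusted). Member calls numbered 0 except 1 with array weights (RT1-N3) and 0 to 1 when 1 array was left out (RT1-N1, without TCDD replicate 3); the replicate block called 0 members (7 at an unadjusted p under 0.05). Family medians kept their direction under every alternative but one: class II turned to 0.04 without TCDD replicate 2. Their size moved: class II was -0.048 with array weights, -0.043 without control replicate 4, -0.085 without TCDD replicate 4 and -0.33, -0.23 and -0.22 without TCDD replicate 1 or 3 or control replicate 3; the processing genes were -0.13 with normexp and -0.14 without TCDD replicate 2; class I was -0.06 without TCDD replicate 1 and -0.19 without TCDD replicate 3. Differences near 0 turned sign: Psmb10 was -0.020 with normexp, -0.0058 with quantile, -0.022 with median centring, -0.012 with the deposited table and -0.019 to 0.051 with 1 array left out; one RT1-Bb probe (A_64_P043911) was -0.031 with median centring, -0.0091 with the deposited table and -0.33 to 0.27 with 1 array left out; RT1-DOb was 0.00078 with normexp and -0.15 to 0.041 with 1 array left out. Left-out arrays gave -0.36 to 0.013 for Cd74, -0.13 to 0.058 for RT1-DMb, -0.45 to 0.015 for RT1-Da and -0.36 to 0.036 for RT1-Db1 (A_64_P130578). The cause was not tested. The same-numbered arrays' deviations correlated at -0.06, -0.08, -0.05 and -0.12 across 18581 probes. Pairs with unlike numbers ran from -0.17 (TCDD replicate 2 with control replicate 1) to 0.22 (TCDD replicate 2 with control replicate 4). Of the other alternatives, 426 values kept direction and call.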

Other observations

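Another 12 probes carried MHC descriptions under names outside the rule. Of these 7 were tested, 1 higher and 6 lower, with differences from -0.69 to 0.27 and 0 called. The lowest was Micb, named for a stress-induced ligand of natural killer cells, at -0.69 (SE 0.51), by a probe that was well above background on 5 of 8 arrays only.

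An unnamed transcript (ENSRNOT00000061381) beside the RT1-N genes, at chr20:2773830-2773889 in rn4, was chosen after its values were seen. It was well above background on 7 of 8 arrays. TCDD replicate 1 was the array that was not, so its level there is only a bound. It stood at -4.13, -2.79 and -3.85 in the other TCDD dams and at -2.77, -2.66, -3.73 and -2.81 in control dams, and the groups overlapped.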
